A study of Mus musculus with 24 samples.

Results

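The Id family consists of 4 genes, Id1, Id2, Id3 and Id4, whose proteins inhibit transcription factors of the basic helix-loop-helix (bHLH) class. They were found by their exact symbols in the array annotation, which gave 4 of the 12393 genes measured and 8 of the 22690 probe sets. Expression was measured on 24 Affymetrix arrays of mouse RNA. The tissues were wild type cerebellum at P6, postnatal day 6 (n = 2), wild type adult cerebellum (n = 1) and primary medulloblastoma (MB), a cerebellar tumor, of adult Ptch1 mutant mice (n = 3). The 18 cultures came from 3 SMB lines, SMB21, SMB55 and SMB56, each grown as neurospheres in DMEM/F12 with B27 and derived from spontaneous medulloblastomas of Ptch+/- mice. The Ptch1 mutation is thus shared by the tumors and by every culture, the parental cells included. Parental cells gave 8 arrays (4 of SMB21, 2 of SMB55, 2 of SMB56). Growth factor (GF) cells gave 1 array per line, after more than 3 weeks with EGF at 20 ng/mL, bFGF at 20 ng/mL and heparin. RAS transformed cells gave 7 arrays (3 of SMB21, 2 of SMB55, 2 of SMB56), and the labels do not name the RAS gene, allele or vector. Results in culture rest on these 3 lines, and tissue holds many cell types, so that fewer cells of a type and less RNA per cell cannot be told apart there.

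Id proteins have the helix-loop-helix region but lack the basic region that touches DNA. They pair with the ubiquitous E proteins (Tcf3, Tcf4, Tcf12) and so keep these from pairing with neural activators such as Atoh1 and Neurod1, which drive the granule neuron lineage of the cerebellum. The Id genes are also well known targets of bone morphogenetic protein (BMP) signalling through Smad proteins, and BMPs are known to oppose the Hedgehog-driven growth of granule neuron precursors. In the brain Id3 and Id4 are known from astrocytes and neural progenitors, and Id1 also from blood vessels. In assembly GRCm38.p6, which serves only to place the genes, Id1 (gene 15901) lies at chr2:152736251-152737410, Id2 (gene 15902) at chr12:25093799-25096092, Id3 (gene 15903) at chr4:136143822-136145392 and Id4 (gene 15904) at chr13:48261116-48266028.

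The 250 bases before the annotated start are shown for Id2, Id3 and Id4, since Id3 and Id4 were the members that rose in RAS cells and Id2 was not called there at its brightest probe set. They come from RefSeq (GRCm38.p6), whose promoter table held 3 of the 4 members. Id1 is named only. Capitals mark 4 motifs searched on either strand: GGCGCC, a palindrome known from BMP-responsive enhancers of Id genes, CANNTG, the E-box that bHLH dimers bind, CCAAT, which reads ATTGG on the other strand, and TATAAA. The windows lie at chr12:25096093-25096342 on the minus strand for Id2, and on the plus strand at chr4:136143572-136143821 for Id3 and at chr13:48260866-48261115 for Id4.
Id2: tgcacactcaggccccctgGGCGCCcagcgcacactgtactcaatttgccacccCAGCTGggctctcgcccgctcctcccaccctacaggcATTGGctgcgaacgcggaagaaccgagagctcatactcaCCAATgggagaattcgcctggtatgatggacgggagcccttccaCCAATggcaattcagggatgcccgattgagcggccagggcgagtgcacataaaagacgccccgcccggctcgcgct
Id3: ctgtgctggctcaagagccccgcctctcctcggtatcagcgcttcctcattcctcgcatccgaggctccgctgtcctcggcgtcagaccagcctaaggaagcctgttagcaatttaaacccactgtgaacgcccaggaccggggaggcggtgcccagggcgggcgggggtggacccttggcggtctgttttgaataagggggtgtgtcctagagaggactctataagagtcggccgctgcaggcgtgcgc
Id4: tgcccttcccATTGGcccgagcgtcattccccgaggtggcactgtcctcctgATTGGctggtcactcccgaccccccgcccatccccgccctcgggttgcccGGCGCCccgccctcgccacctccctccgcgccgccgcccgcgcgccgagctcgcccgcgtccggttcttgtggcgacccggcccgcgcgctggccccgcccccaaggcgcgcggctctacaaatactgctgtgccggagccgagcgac
Id2 held 1 GGCGCC, 1 CANNTG and 3 CCAAT, Id4 held 1 GGCGCC and 2 CCAAT, and Id3 held none of the 4 motifs. No marked motif overlapped another. Of 32851 windows of the same length, 9.6% held GGCGCC, 66.2% CANNTG, 33.8% CCAAT and 12.4% TATAAA. The GC content was 62.8% in Id2 and Id3 and 75.6% in Id4, against 53.2% over all windows. The letters describe these windows and locate no binding site.

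All values are log2 of the deposited intensity plus 16, so a difference of 1 is a doubling of intensity plus 16, and differences of dim genes are understated. The dimmest probe set of any array had a value of 4.70. The SE is the standard error of a difference in a limma fit over all genes, and a gene is called when its p-value, adjusted over the 12393 genes, is under 0.05. In the tissue fit the parental cells enter as 1 mean per line (n = 3), while in the culture fit arrays are replicates and the line is a term. Nothing in the labels says which arrays share a culture or an animal, so p-values measure the spread between these samples. Array medians (intensity) were 235.1 to 245.1 on the RAS arrays of SMB55 and SMB56 and on parental replicate 2 of both lines, and 188.8 to 226.4 on the other 18 arrays. The labels give no batch, so that split was not tested as one. The RAS differences over the lines, and those of Id3 and Id4 within lines, are given below also without parental replicate 1. In the fit by line, leaving out 1 of a group's 2 arrays takes that group's spread out of the fit. A call gained in that way, also in another line, adds no evidence. The labelled cell types were checked against their markers. Microglial genes were low in culture, with a summed intensity of 11 markers of 422.465 to 1260.89 in cultures against 5927.96 to 24702.3 in tissues. Atoh1, which marks granule neuron precursors, stood at 11.25 to 12.71 in tumors and 11.79 to 12.97 in parental cells.

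**Figure D1:**
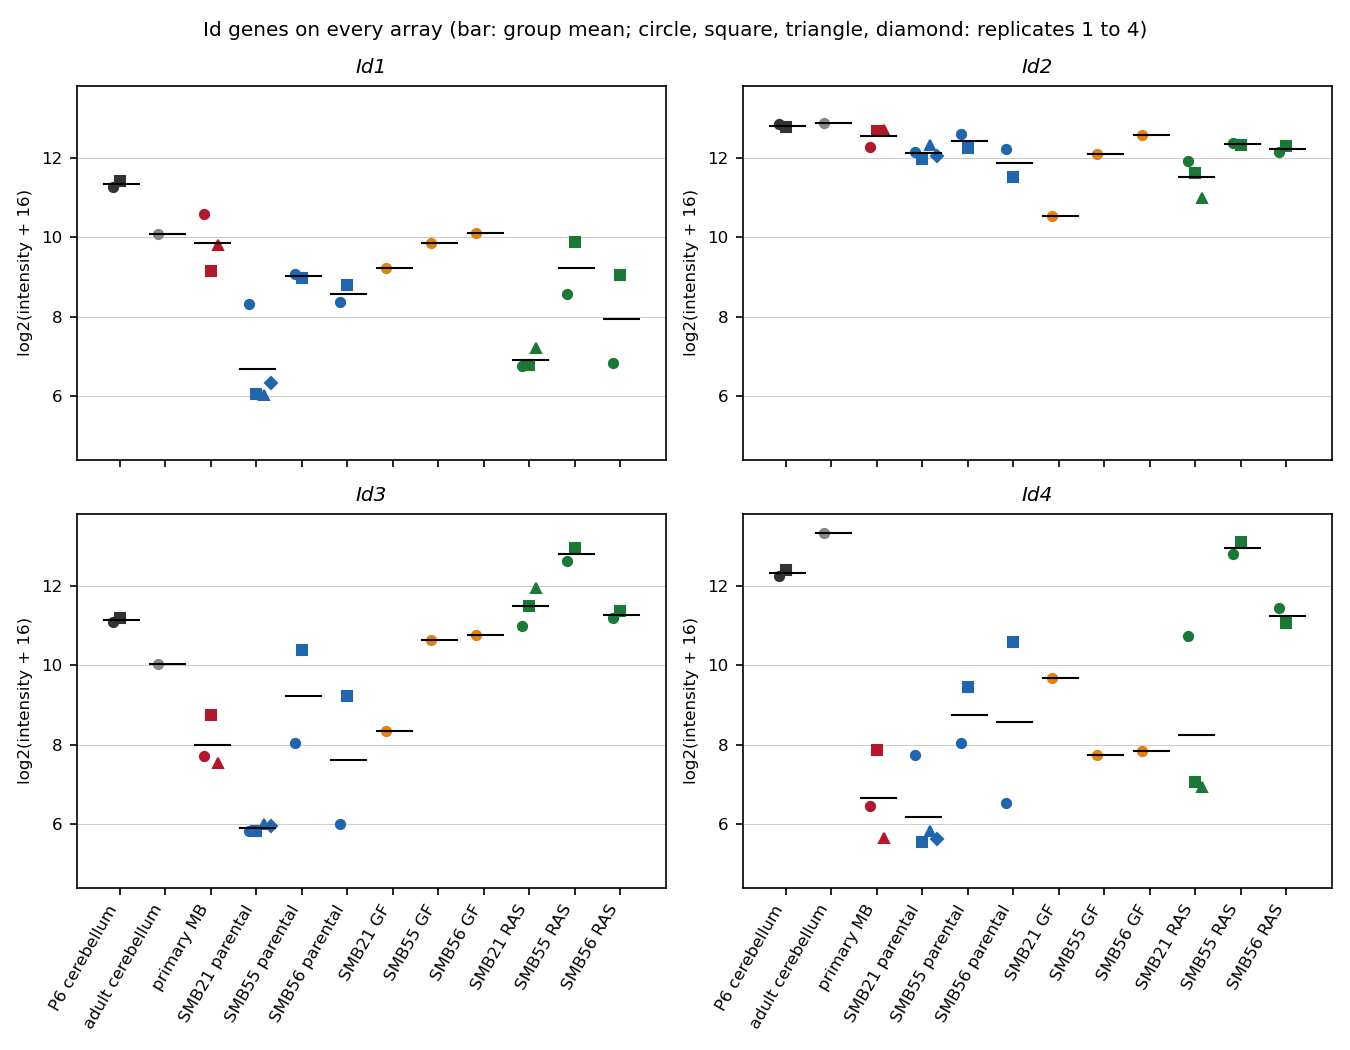
Level of each Id gene, as log2 of intensity plus 16, on every array by group (probe set with the highest mean). Bars are group means and symbols number the replicates. All 7 RAS arrays lie above all 8 parental arrays in Id3, Id1 is lowest on average in SMB21 parental and RAS cells, and Id2 stays between 10.54 and 12.88.

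Id4 was the member with the largest fall from normal postnatal cerebellum to tumor. At P6 it stood at 12.24 and 12.40, and in primary medulloblastoma at 6.46, 7.87 and 5.65. The groups did not overlap. Id4 fell by 5.66 in tumors (SE 0.89, 50.7-fold, limma adjusted p = 0.0104). It was the only 1 of the 4 Id genes called there, beside 11.0% of all genes. The call rests on both P6 arrays: without replicate 1 or 2 the adjusted p was 0.0820 or 0.0978. Id4 also fell by 4.16 (SE 0.43, adjusted p = 0.00219) and fell by 5.55 (SE 0.76, adjusted p = 0.00744) at its other probe sets, adjusted over all 22626 probe sets, of which 9.45% were called. Id3 stood at 11.07 and 11.19 at P6 and at 7.71, 8.74 and 7.53 in tumors. Its groups did not overlap either, but the difference of -3.14 (SE 0.87) missed the threshold (adjusted p = 0.0664). In a fit of only the P6 and tumor arrays Id3 was called (adjusted p = 0.00949), as it was without line SMB21 (0.0192) or SMB55 (0.0230) or without SMB55 parental replicate 2 (0.0276). Id1 stood at 11.27 and 11.40 at P6 and at 10.58, 9.15 and 9.79 in tumors, a difference of -1.50 (95% interval -3.18 to 0.18, adjusted p = 0.218). Id2 differed least, at 12.85 and 12.76 against 12.27, 12.66 and 12.69 (-0.26, 95% interval -0.73 to 0.20, adjusted p = 0.419). The median difference of the 4 genes was -2.32, against 0.05 over all genes.

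Parental SMB cells were lower than P6 cerebellum in every Id gene at the probe set used for it. Parental arrays stood at 5.56 to 10.58 in Id4 and 5.82 to 10.39 in Id3. They stood at 6.02 to 9.08 in Id1 and 11.51 to 12.59 in Id2, and the P6 values are given above. How many of all genes separate these groups was not counted, so the separation is not read as a result. Id4 fell by 4.50 (SE 0.89, 22.6-fold, adjusted p = 0.0129), Id3 by 3.55 (SE 0.87, 11.7-fold, adjusted p = 0.0263), Id1 by 3.24 (SE 0.71, 9.46-fold, adjusted p = 0.0178) and Id2 by 0.67 (SE 0.20, 1.59-fold, adjusted p = 0.0455). At these probe sets 4 of 4 were thus called where 25.6% of all genes were, with a median of -3.40 against 0.08. The Id2 call depends on the probe set. It was not called at 1422537_a_at (-0.74, adjusted p = 0.0798) or 1453596_at (0.10, adjusted p = 0.891), adjusted over all probe sets. Id4 was called at its others, 1423260_at (-3.78, adjusted p = 0.00190) and 1450928_at (-4.48, adjusted p = 0.00811). Leaving out P6 replicate 1 ended all 4 calls (adjusted p = 0.0823 to 0.210), and so did leaving out P6 replicate 2 (0.0908 to 0.165). Without SMB56 parental replicate 1 the calls of Id2, Id3 and Id4 were lost (0.0734, 0.0669 and 0.0612), and Id1 kept its call. Id3 was also lost without SMB55 parental replicate 1 (0.0896), without line SMB56 (0.0617) and in a fit restricted to the P6 and parental samples (0.0559). Id2 lost its call in 14 of 29 alternatives, among them the line as a random block (0.0508), quantile normalization (0.0530) and the mean of its probe sets (-0.43, adjusted p = 0.25).

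Against the tumors themselves, parental cells differed in none of the 4 Id genes by the adjusted limma test, where 20.6% of all genes were called. Id1 came nearest: each of the 8 parental arrays, at 6.02 to 9.08, lay below the 3 tumors (-1.74, SE 0.63, unadjusted p = 0.0286, adjusted p = 0.0961). It was the only member with an unadjusted p under 0.05. Id2 differed by -0.41 (95% interval -0.82 to 0.01), Id3 by -0.42 (-2.27 to 1.43) and Id4 by 1.17 (-0.72 to 3.05). When each array was centred on its own median, which moved the median of all genes in this comparison from 0.03 to -0.18, Id1 (-1.96, adjusted p = 0.0496) and Id2 (-0.62, adjusted p = 0.0446) were called lower.

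The adult cerebellum is 1 array, so its own spread was not measured. Id4 stood at 13.31 there, above the P6 arrays, Id2 at 12.88, and Id1 at 10.07 and Id3 at 10.02, below both P6 arrays. None of the 4 differences was called, where 19.2% of all genes were: Id1 -1.27 (95% interval -3.52 to 0.98), Id2 0.07 (-0.55 to 0.70), Id3 -1.11 (-3.89 to 1.67) and Id4 0.99 (-1.84 to 3.82). No Id gene had an unadjusted p under 0.05 there. The tumors, also of adult mice, were not tested against this array. In Id1 the tumors lay on both sides of it (9.15 to 10.58). In Id2 (12.27 to 12.69), Id3 (7.53 to 8.74) and Id4 (5.65 to 7.87) they lay below it.

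**Figure D2:**
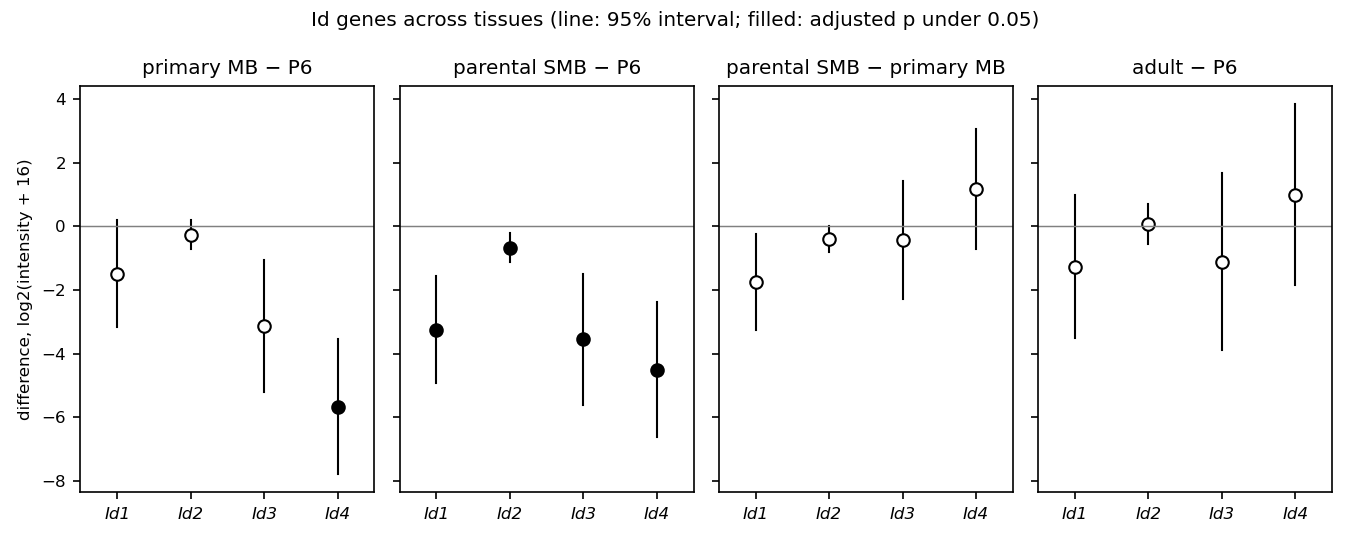
Differences of the 4 Id genes (probe set with the highest mean) between tissues and parental SMB cells, on the log2 scale of intensity plus 16, with 95% intervals. Filled symbols have an adjusted p under 0.05: Id4 in tumors, and all 4 genes in parental SMB cells, against P6 cerebellum.

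Markers of other cells moved in the same comparisons, and their part in these results was not tested. Over all genes, 11.0% were called in tumors and 25.6% in parental cells against P6, in either direction, beside each list given here. Of 12 astrocyte genes, 7 were lower and 1 higher in tumors than at P6, and 6 lower and 1 higher in parental cells. Their summed intensity was 73213.6 and 73401.3 at P6, 123838 in the adult, 11022.5 to 14802.1 in tumors and 10067.7 to 43998.5 in parental cells. Aldh1l1, an astrocyte enzyme, stood at 10.67 at P6 and at 5.43 to 6.10 in tumors and parental cells, and Aqp4, the astrocyte water channel, at 12.67 and 12.90 at P6 and at 4.95 to 5.26 in the cultures other than SMB21 parental replicate 1 (6.63). Of 10 endothelial genes, 8 were lower in tumors and 9 in parental cells, with a summed intensity of 7397.08 and 7581.73 at P6, 954.371 to 1724.77 in tumors and 677.931 to 1093.35 in parental cells. Of 7 fibroblast and meningeal genes, 6 and 7 were lower (21666.9 and 24040.9 at P6, 790.939 to 4600.55 in tumors, 314.872 to 504.357 in parental cells). All 4 Purkinje cell genes were lower in tumors and in parental cells. Microglial genes went the other way in tumors, with 8 of 11 higher.

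Of the Id genes in parental cells, only Id3 was called between lines, higher in SMB55 than in SMB21, and in SMB55 and SMB56 the replicates of Id3 lay far apart. Id3 stood at 5.83, 5.82, 6.01 and 5.94 in SMB21, close to the floor, at 8.05 and 10.39 in SMB55 and at 6.0 and 9.21 in SMB56. Every SMB55 array lay above every SMB21 array. Id3 was 3.32 higher in SMB55 than in SMB21 (SE 0.76, adjusted p = 0.0286), the only 1 of 4 Id genes called in that comparison, beside 6.16% of all genes. The call was lost without SMB55 parental replicate 2 (2.15, adjusted p = 0.267) and without SMB21 parental replicate 2, 3 or 4 (0.0664, 0.0657 and 0.0674). SMB56 differed in none of the 4 from SMB21 (0.767% of genes called) or from SMB55 (0.541%). Of the 4, Id1 and Id3 had an unadjusted p under 0.05 against SMB21 and no member did against SMB55. Single arrays decided these: without SMB21 parental replicate 1, Id1 was called higher than SMB21 in SMB55 (2.91, adjusted p = 0.00977) and in SMB56 (2.45, adjusted p = 0.0404). Without SMB56 parental replicate 1, Id3 was called higher in SMB56 than in SMB21 (3.31, adjusted p = 0.0243), and without replicate 2 lower than in SMB55 (-3.22, adjusted p = 0.0349). Id4 stood at 7.73, 5.56, 5.82 and 5.62 in SMB21, at 8.03 and 9.44 in SMB55, and at 6.53 and 10.58 in SMB56. In both genes replicate 2 of SMB55 and SMB56 was the higher array. Id1 stood at 8.32, 6.05, 6.02 and 6.32 in SMB21, where replicate 1 lies apart, and at 9.08, 8.98, 8.36 and 8.79 in the SMB55 and SMB56 arrays. Id2 was even, at 12.15, 11.97, 12.32 and 12.03 in SMB21, 12.59 and 12.25 in SMB55, and 12.21 and 11.51 in SMB56. The arrays high in Id4 within a line were also high in the astrocyte list: its summed intensity was 22141 in SMB21 replicate 1 against 10067.7 to 10774.4 in replicates 2 to 4, 39726.4 against 17063.6 in SMB55, and 43998.5 against 12303.3 in SMB56. The oligodendrocyte list followed the same arrays, at 3378.86 against 1256.75 to 1722.25, 15314.5 against 3350.35, and 10313.6 against 1497.02. The part of these cell types in the Id values was not tested.

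RAS transformed cells had much higher Id3, and higher Id4 in most cultures, than parental cells of the same lines. Id3 stood at 10.99, 11.49 and 11.94 in RAS cells of SMB21, at 12.62 and 12.95 in SMB55 and at 11.19 and 11.35 in SMB56. Every RAS array lay above every parental array of any line, and 6 of the 7 lay above both P6 cerebella. Id3 rose by 4.51 (SE 0.49, 95% interval 3.45 to 5.57, 22.8-fold, adjusted p = 1.54e-05), rank 147 of all genes by p. It was called in all 35 alternatives run (3.62 to 5.27, adjusted p 6.26e-06 to 0.0303), among them the fit without parental replicate 1 of all lines (3.97, adjusted p = 0.000449). Within lines Id3 rose by 5.57 in SMB21 (SE 0.67, adjusted p = 0.000234), 3.56 in SMB55 (SE 0.88, adjusted p = 0.0145) and 3.67 in SMB56 (SE 0.88, adjusted p = 0.0236). Background calls in these were 19.4%, 21.5% and 12.0% of all genes. In SMB55 and SMB56 the call depended on single arrays: with the line's own parental replicate 1 left out it was lost in SMB55 (2.39, adjusted p = 0.142) and SMB56 (2.06, adjusted p = 0.154), and likewise without RAS replicate 1 (0.0623 and 0.0957) or 2 (0.0676 and 0.129). With parental replicate 1 of all lines left out together, the differences were again 2.39 in SMB55 and 2.06 in SMB56, and 5.55 in SMB21. SMB55 and SMB56 then have 1 parental array each. The wide spread of their parental Id3 values (SD 1.66 and 2.27) is thus out of the fit, so its p-values for Id3 are not given here. A difference in the Id3 response among lines was not called (F = 2.28, adjusted p = 0.407). The fit without parental replicate 1 of all lines gave F = 52.8 with the same spread left out, so it cannot decide on a line difference.

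Id4 responded to RAS less evenly. In SMB21 the RAS arrays stood at 10.74, 7.05 and 6.92, overlapping parental replicate 1 (7.73). In SMB55 they stood at 12.80 and 13.09 and in SMB56 at 11.44 and 11.05, in both lines above every parental array. Id4 rose by 2.86 over the lines (SE 0.85, 7.25-fold, adjusted p = 0.0180), so that 2 of the 4 Id genes were called higher, beside 32.1% of all genes called in either direction and 14.1% called higher. The Id4 call was lost with 1 mean per line and treatment (2.98, adjusted p = 0.207), without line SMB55 (adjusted p = 0.129) or SMB56 (0.0513), without parental replicate 1 of all lines (2.53, adjusted p = 0.0802), and with only that replicate of each line (3.17, adjusted p = 0.0924). Within lines Id4 was not called: 2.05 in SMB21 (95% interval -0.32 to 4.43), 4.21 in SMB55 (1.10 to 7.32) and 2.68 in SMB56 (-0.43 to 5.79). In SMB55 it was called without SMB21 RAS replicate 1 (adjusted p = 0.0216) or either SMB56 parental array (0.0254 each), and in SMB56 without its parental replicate 2 (4.71, adjusted p = 0.0451). In SMB56 the difference of 2.68 rests on parental replicate 1: without it the difference was 0.66 (adjusted p = 0.919). Without parental replicate 1 of all lines it was 2.57 in SMB21 (adjusted p = 0.0782), 3.51 in SMB55 (0.121) and 0.66 in SMB56 (0.875). A line difference was not called (F = 0.74, adjusted p = 0.746). The SMB21 RAS array with high Id4, replicate 1, had a summed astrocyte intensity of 25406.1 against 11292.5 and 10413.3 in the others. Its oligodendrocyte sum was higher too (5420.39 against 1583.98 and 1153.02). In SMB55 and SMB56 RAS cells the array with the higher astrocyte sum had the lower Id4. These were 50628.1 at 12.80 against 28410.1 at 13.09 in SMB55, and 69124.3 at 11.05 against 65718.9 at 11.44 in SMB56. The part of these cell types was not tested.

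Id1 and Id2 were not called between RAS and parental cells at the probe sets used here. Id1 stood at 6.75, 6.79 and 7.21 in SMB21 RAS cells, 8.57 and 9.88 in SMB55 and 6.82 and 9.05 in SMB56. It overlapped the parental arrays in each line (0.00, 95% interval -0.87 to 0.87, and 0.31 with adjusted p = 0.633 without parental replicate 1 of all lines). Id2 stood at 11.91, 11.60 and 10.99 in SMB21 RAS cells, below all 4 parental arrays of that line, and at 12.37 and 12.31 in SMB55 and 12.14 and 12.29 in SMB56. Over the lines Id2 differed by -0.23 (95% interval -0.72 to 0.26, and -0.18 with adjusted p = 0.681 without parental replicate 1 of all lines). Within SMB21 it differed by -0.62 (SE 0.22, adjusted p = 0.0717), and was called without SMB21 RAS replicate 1 (-0.82, adjusted p = 0.0315) or either SMB56 parental array (0.0463 each). No response to RAS differed by line for Id1 (F = 0.41, adjusted p = 0.855) or Id2 (F = 3.77, adjusted p = 0.253). None of the 4 RAS responses was thus called different between lines, beside 3.45% of all genes, and none had an unadjusted p under 0.05.

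**Figure D3:**
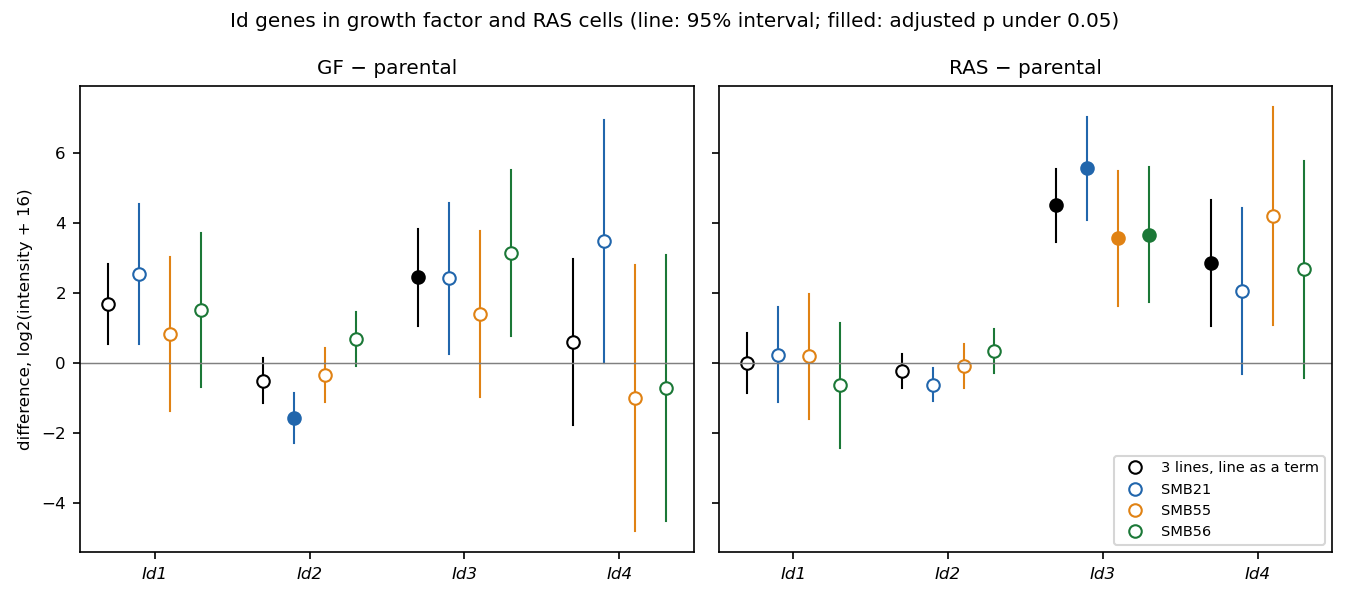
Differences of the 4 Id genes between GF or RAS cells and parental cells, over the 3 lines and within each, on the log2 scale of intensity plus 16 with 95% intervals. Filled symbols have an adjusted p under 0.05, which Id3 had in RAS cells over the lines and within every line.

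In growth factors Id3 rose and Id1 came close to the threshold. Id3 stood at 8.33, 10.63 and 10.75 in the GF cells of SMB21, SMB55 and SMB56, each above every parental array of its line. It rose by 2.46 (SE 0.65, 5.49-fold, adjusted p = 0.0290) and was 1 of 4 Id genes called, beside 8.93% of all genes. With line and replicate number as a block the rise was 3.02 (SE 0.72) and the call was lost (adjusted p = 0.0666), as calls fell from 1107 to 243 genes. It was lost as well with 1 mean per line (adjusted p = 0.136), in a fit of GF and parental arrays only (0.0678), without line SMB21 (0.254) or SMB56 (0.100), and without parental replicate 1 of all lines (1.89, adjusted p = 0.0960). Of single arrays, leaving out SMB21 GF (0.0724), SMB56 GF (0.191) or SMB55 parental replicate 1 (0.0504) ended it. Id1 stood at 9.23, 9.86 and 10.09, and all 3 GF arrays lay above all 8 parental arrays (1.70, SE 0.53, adjusted p = 0.0617). It was called without SMB21 parental replicate 1 (adjusted p = 0.0246), without SMB55 GF (0.0442), without SMB56 RAS replicate 1 (0.0382), without parental replicate 1 of all lines (0.0389) and when genes below the 25th percentile of mean level were left out (0.0454).

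Id2 and Id4 were not called in GF cells over the lines (-0.50, adjusted p = 0.358, and 0.61, adjusted p = 0.825). Each line has 1 GF array, whose own spread was not measured, so tests within a line assume that it varies like the other groups. Id2 stood at 10.54 in SMB21 GF, the lowest of all 24 arrays, at 12.08 in SMB55 and at 12.56 in SMB56. In SMB21 it fell by 1.58 (SE 0.32, adjusted p = 0.0134), the only 1 of 4 called in that line, beside 8.21% of genes. In SMB55 it differed by -0.34 (95% interval -1.11 to 0.43) and in SMB56 by 0.70 (-0.07 to 1.47). The difference among lines missed the threshold (F = 11.6, adjusted p = 0.0862, 1.40% of genes called) and passed it without parental replicate 1 of all lines (F = 14.5, adjusted p = 0.0434), without SMB56 parental replicate 1 alone (0.0390), without SMB55 GF (0.0478) and without SMB21 RAS replicate 3 (0.0343). Id4 stood at 9.67 in SMB21 GF, above its parental arrays, at 7.73 in SMB55 GF, below them, and at 7.83 in SMB56 GF, between them. Its differences were 3.49 (95% interval 0.01 to 6.97), -1.01 (-4.81 to 2.80) and -0.73 (-4.53 to 3.08), and a line difference was not called (F = 2.38, adjusted p = 0.604). In SMB55 and SMB56 none of the 4 genes was called by limma's test (0.686% and 5.43% of genes), with an unadjusted p under 0.05 only for Id3 in SMB56. There the Id3 difference was 4.75 without SMB56 parental replicate 2 and 1.54 without parental replicate 1 of all lines, with 1 parental array of SMB56 left in each case. In SMB21, Id1 was called without parental replicate 1 (3.10, adjusted p = 0.0193) and Id3 without either SMB56 parental array (0.0414 each).

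RAS and GF cells, compared directly, differed in none of the 4 Id genes at the adjusted threshold, where 11.2% of all genes were called. Id3 and Id1 missed it narrowly in opposite directions. Id3 was 2.05 higher in RAS cells (SE 0.66, unadjusted p = 0.00721, adjusted p = 0.0567), with all 7 RAS arrays above all 3 GF arrays. Id1 was 1.70 lower in RAS cells (SE 0.54, unadjusted p = 0.00697, adjusted p = 0.0559), with 6 of 7 RAS arrays below the GF arrays. Id4 was 2.25 higher (95% interval -0.16 to 4.66) and Id2 0.27 higher (-0.38 to 0.93). Leaving out 1 array brought calls for Id3 (without SMB55 parental replicate 2, 0.0374, or either SMB56 parental array, 0.0393 and 0.0338), for Id1 (without SMB21 parental replicate 1, 0.0380, SMB55 RAS replicate 2, 0.0473, or SMB56 RAS replicate 2, 0.0480) and for Id4 (without SMB21 GF, 3.99, adjusted p = 0.0404).

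Ordered by group mean, each gene had its own ranking of conditions. Id3 was highest in RAS cells of SMB55 (12.79, SD 0.23, n = 2), SMB21 (11.47, SD 0.48, n = 3) and SMB56 (11.27, SD 0.11, n = 2), then P6 cerebellum (11.13, SD 0.08, n = 2), the GF cells of SMB56 and SMB55, adult cerebellum, SMB55 parental cells, SMB21 GF, tumors (7.99, SD 0.65, n = 3), SMB56 parental and SMB21 parental cells (5.90, SD 0.09, n = 4). SMB56 RAS cells (11.19 to 11.35) and P6 cerebellum (11.07 to 11.19) are close neighbours, and a difference between them was not tested. SMB21 and SMB56 RAS cells overlapped. Id4 was highest in adult and SMB55 RAS (12.95, SD 0.21, n = 2), P6 (12.32, SD 0.11, n = 2) and SMB56 RAS (11.24, SD 0.27, n = 2). Below these came SMB21 GF, SMB55 and SMB56 parental cells and SMB21 RAS cells, of which the last 3 overlapped, then the GF cells of SMB56 and SMB55. Tumors (6.66, SD 1.12, n = 3) and SMB21 parental cells (6.18, SD 1.04, n = 4) were lowest and overlapped. Id1 was highest at P6 (11.34, SD 0.09, n = 2) and lowest in SMB21 RAS (6.92, SD 0.26, n = 3) and SMB21 parental cells (6.68, SD 1.10, n = 4), which overlapped. Id2 spanned 10.54 to 12.88, and 11 of its 12 groups had means between 11.50 and 12.88.

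The probe sets of Id4 gave 1 pattern and those of Id2 more than 1. Over 24 arrays the 3 Id4 probe sets correlated at 0.967 to 0.985, as a description. In RAS cells the second Id4 probe set (1423260_at) rose by 1.74 (SE 0.51, adjusted p = 0.0173), and in SMB55 by 3.29 (SE 0.68, adjusted p = 0.00650, 21.3% of probe sets called), while the third (1450928_at) differed by 1.75 (SE 0.70, adjusted p = 0.0677). Id2 probe sets 1435176_a_at, used above, and 1422537_a_at correlated at 0.925, and 1453596_at with these at 0.201 and 0.323. At 1453596_at the adult array stood at 6.54 against 8.54 and 8.29 at P6 (-1.88, adjusted p = 0.0805). That probe set fell in RAS cells by 0.88 over the lines (SE 0.19, adjusted p = 0.00267), beside 32.2% of all probe sets called. In RAS cells of SMB56 it fell by 0.93 (SE 0.25, adjusted p = 0.0370, 11.4% of probe sets called), and in SMB21 it fell by 0.94 (SE 0.19, adjusted p = 0.00626, 18.2%). In SMB21 RAS cells 1422537_a_at also fell, by 0.75 (SE 0.21, adjusted p = 0.0283). Id1 and Id3 have 1 probe set each.

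**Figure D4:**
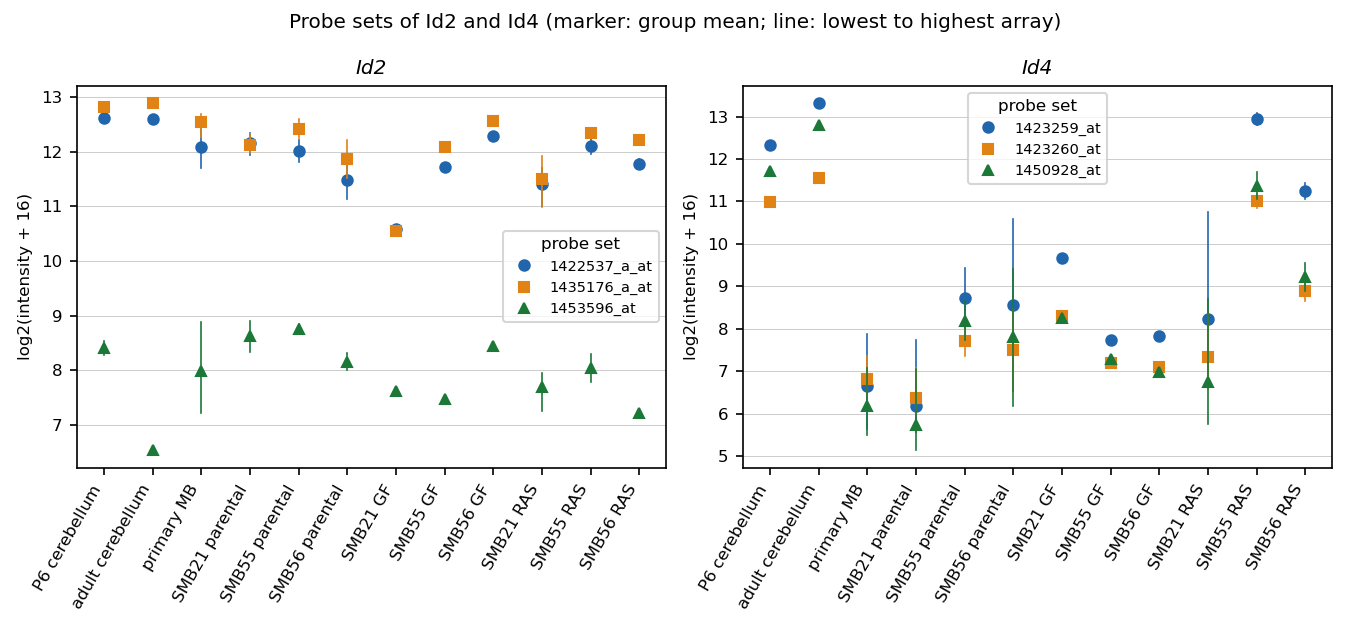
Group means (symbols) and lowest to highest array (lines) of the 3 probe sets of Id2 and of Id4, as log2 of intensity plus 16. The Id4 probe sets rise and fall in parallel, while Id2 probe set 1453596_at is lowest in the adult cerebellum (6.54), where the other Id2 probe sets are high.

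The RNAs of some bHLH factors that Id proteins are known to oppose fell in the same cells, and a part of the Id genes in this was not tested. Barhl1, Zic1, Pax6 and Gli1, granule neuron precursor genes outside the bHLH lists, fell in RAS cells as well. Of 11 neural bHLH factors listed as activators, 5 fell in RAS cells, 0 rose and 6 were not called, where 32.1% of all genes were called (median -0.97, against -0.05 over all genes). The list also holds Olig1 (-0.97) and Olig2 (0.28), outside the rule for naming and not called. Atoh1 fell by 6.45 (SE 0.59, adjusted p = 3.71e-06), from 11.79 to 12.97 in parental cells to 5.40 to 7.63 in RAS cells. Neurod1, a driver of granule neuron differentiation, fell by 4.28 (SE 0.57, adjusted p = 6.68e-05), Nhlh1 by 3.36 (SE 0.30, adjusted p = 2.92e-06) and Neurod2 by 0.93 (SE 0.17). Neurod6, outside the rule for naming, fell by 2.33 (SE 0.51). Atoh1 and Neurod1 fell in each line, and a link to Id3 was not tested. GF cells shared 2 of these falls, Atoh1 (4.59, SE 0.78, adjusted p = 0.00290) and Nhlh1 (2.22, SE 0.39, adjusted p = 0.00360), but Atoh1 stayed at 11.19 in SMB55 GF against 6.28 and 6.47 in SMB21 and SMB56 GF. The GF and RAS comparisons share the parental arrays. Of the 3 E proteins, Tcf4 fell by 0.89 (SE 0.25, adjusted p = 0.0146) and Tcf12 rose by 0.34 (SE 0.10, adjusted p = 0.0200) in RAS cells, while Tcf3 was not called (-0.31, adjusted p = 0.109), and none was called in GF cells. In tumors against P6, where Id4 fell, Tcf4 was 0.66 higher (SE 0.14, adjusted p = 0.0329). Atoh1 was 1.91 higher there (SE 0.42, adjusted p = 0.0346), while Ptf1a, the activator of the cerebellar inhibitory lineage, fell by 3.87 (SE 0.12) and Neurog2 fell by 3.21 (SE 0.10). In parental cells against P6, Neurod1 fell by 3.23 (SE 0.26, adjusted p = 0.000341). Tcf3 was 0.86 higher in those cells (SE 0.18, adjusted p = 0.0156) and Atoh1 2.19 higher (SE 0.42, adjusted p = 0.0118).

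The Hes and Hey repressors, bHLH proteins known as Notch targets, and relatives split in direction. Of 8 measured, 3 rose and 2 fell in RAS cells, where 32.1% of all genes were called. Bhlhe40 rose by 3.20 (SE 0.45, adjusted p = 0.000117), Hes1 by 1.64 (SE 0.23, adjusted p = 9.62e-05) and Hey2 by 1.06 (SE 0.33, adjusted p = 0.0230). Hes6, known to oppose Hes1, fell by 1.70 (SE 0.29), and Hes5, outside the rule for naming, by 1.36 (SE 0.47). In GF cells Bhlhe40 rose by 2.43 (SE 0.59, adjusted p = 0.0200) and no other was called. Hes5 was lower than at P6 in tumors (by 3.48, SE 0.58, adjusted p = 0.0131) and in parental cells (by 2.70, SE 0.58, adjusted p = 0.0171).

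Bmp2 had the largest rise in RAS cells among genes of the BMP pathway, which is known to act upstream of the Id genes. Of 7 genes listed as ligands, 4 rose there and 0 fell (median 1.20, against -0.05 over all genes), where 32.1% of all genes were called. Without Bmp1, which is named as a BMP but is a protease, 3 of 6 rose (median 0.96). Bmp2 stood at 5.14 to 6.52 in parental cells, 5.24 to 6.96 in GF cells and 7.64 to 12.25 in RAS cells, a rise of 4.25 (SE 0.45, adjusted p = 1.19e-05), and by line it rose by 3.44 in SMB21, 6.14 in SMB55 and 3.74 in SMB56, each called. Bmp1, which processes collagen and BMP antagonists, rose by 1.20 (SE 0.23), Bmp7 by 1.66 (SE 0.36, adjusted p = 0.00295) and Bmp5 by 1.94 (SE 0.48). Of 7 receptors, Acvr1 (1.47, SE 0.16) and Acvrl1 (1.14, SE 0.29) rose, and Acvr2a fell by 0.84 (SE 0.14) and Acvr2b fell by 1.60 (SE 0.23). Of 4 Smads, Smad1 rose by 0.42 (SE 0.09). Of 13 inhibitors, 5 rose and 2 fell, among them Skil, a Smad corepressor (1.49, SE 0.17), Bambi, a decoy receptor (1.86, SE 0.28), and Smad7, an inhibitory Smad (1.38, SE 0.26), against Chrd, the secreted antagonist chordin, which fell by 1.13 (SE 0.14). Of 10 target genes other than the Id genes, 4 rose and 1 fell, and 3 of the 4, Smad6, Smad7 and Bambi, stand in both lists. Tnfrsf11b rose by 2.78 (SE 0.52) and Dlx5 fell by 1.00 (SE 0.21). Smad6, outside the rule for naming here, rose by 1.16 in SMB21, 4.33 in SMB55 and 2.02 in SMB56. In GF cells, where Id3 also rose and 8.93% of all genes were called, Bmp1 rose by 1.11 (SE 0.30), none of the other 6 ligands was called, and 1 of 10 targets rose (Bambi, 1.37, SE 0.36), and Chrd fell by 0.81 (SE 0.18) and Twsg1 fell by 0.83 (SE 0.16). These list genes were not shown to differ between GF and RAS cells except for those called directly, of which Bmp2 (3.99 higher in RAS cells, SE 0.60, adjusted p = 0.00207) had the largest difference among the ligands.

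**Figure D5:**
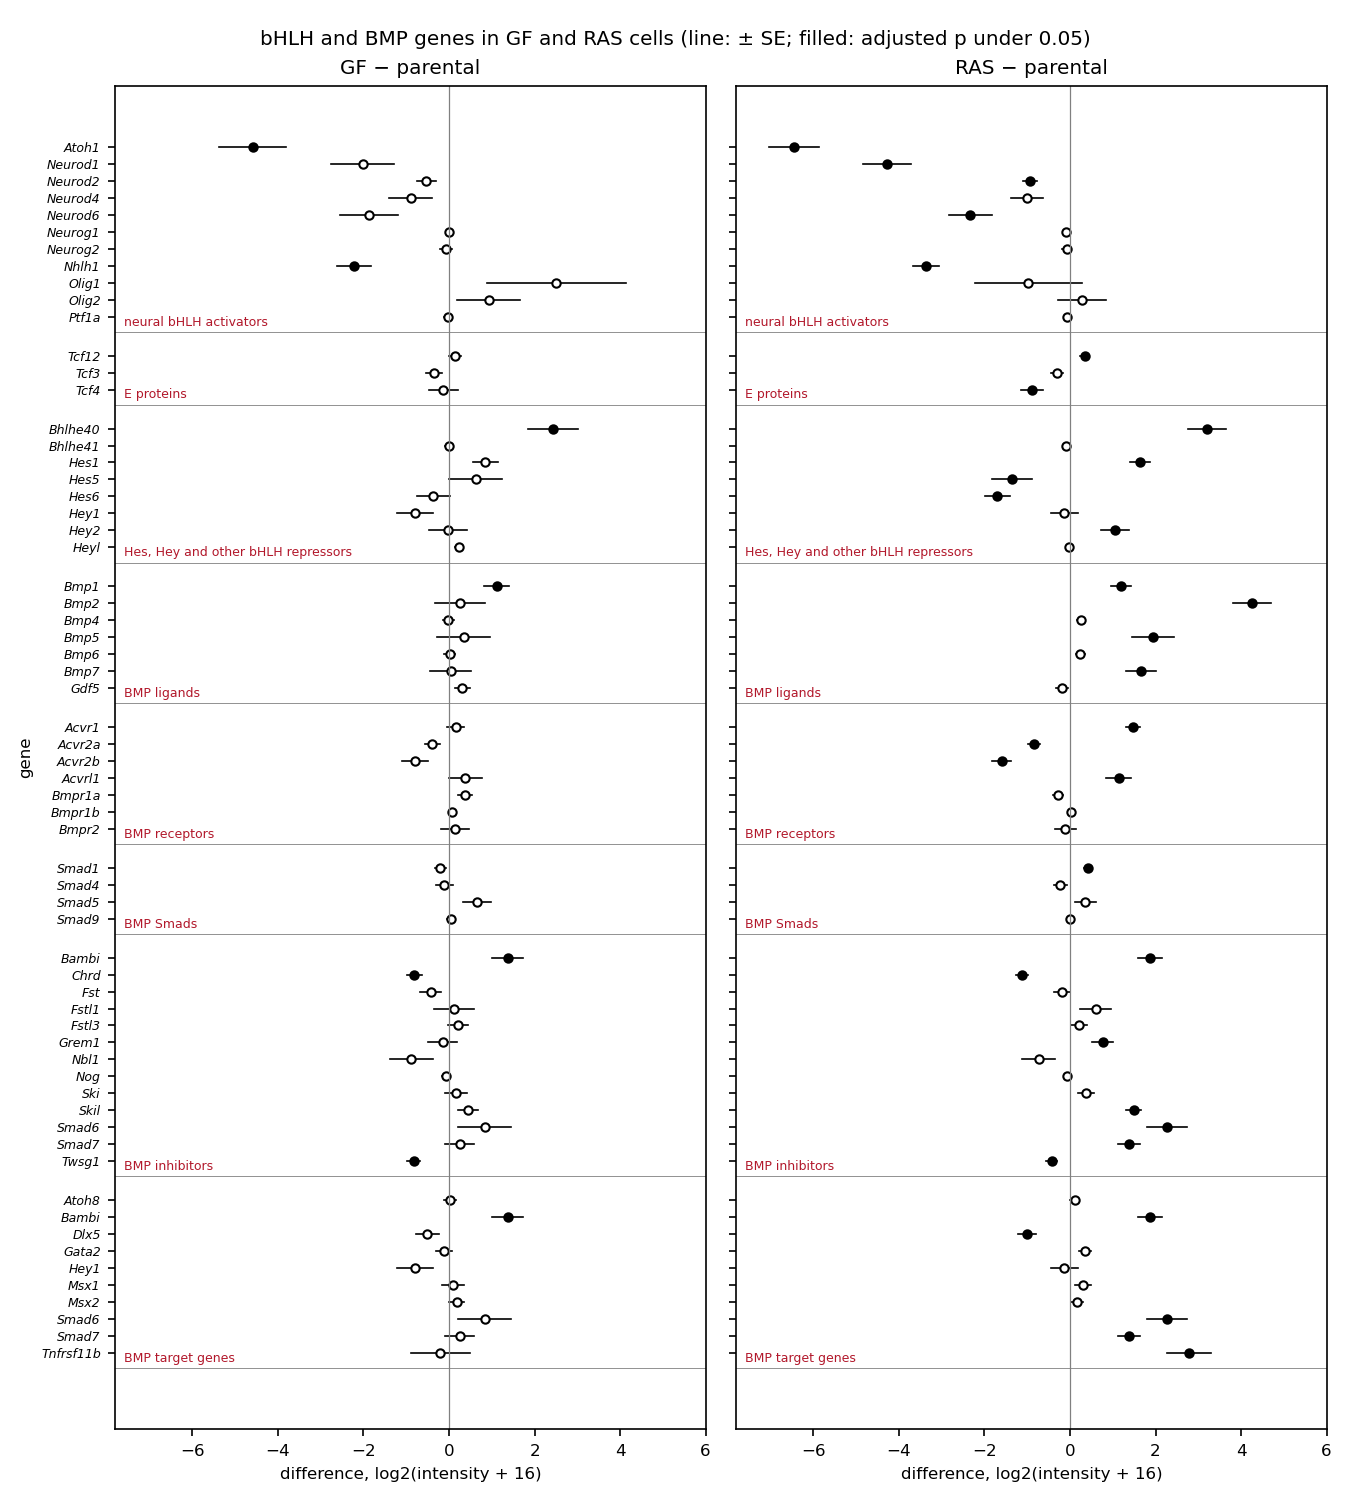
Differences of bHLH and BMP pathway genes between GF or RAS cells and parental cells over the 3 lines, on the log2 scale of intensity plus 16, with their SE. Filled symbols have an adjusted p under 0.05. Atoh1 (-6.45) and Bmp2 (4.25) are the extremes in RAS cells.

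Against P6 cerebellum, Bmp4 and Bmp6 were lower in tumors and in parental cells, where 11.0% and 25.6% of all genes were called. Bmp4 and Bmp6 were the 2 of 7 ligands called lower in tumors than at P6: Bmp4 fell by 2.09 (SE 0.12) and Bmp6 fell by 2.15 (SE 0.11). In parental cells Bmp4 fell by 2.23 (SE 0.12) and Bmp6 fell by 2.18 (SE 0.11). Of 10 targets, 3 were lower in tumors and 0 higher: Msx1 fell by 1.78 (SE 0.23), Msx2 fell by 1.22 (SE 0.13) and Smad6 fell by 0.84 (SE 0.12). In parental cells 4 of 10 were lower, where Msx2 fell by 1.28 (SE 0.13) and Bambi fell by 1.70 (SE 0.41), and Dlx5 was 1.04 higher (SE 0.29). Against tumors, parental cells had none of the 7 ligands and none of the 10 targets called.

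Cell type markers in the treated cultures are given beside the Id results, and their part was not tested. Of 12 astrocyte genes 2 rose in RAS cells, Gja1 (4.89, SE 0.52) and Slc4a4 (0.78, SE 0.28), a share near the 14.1% of all genes called higher. In GF cells 2 rose, Slc1a3 (2.39, SE 0.52) and Slc4a4 (2.24, SE 0.36), beside 8.93% of all genes called in either direction. Aqp4 stayed at 4.98 to 5.26 and Aldh1l1 at 5.51 to 5.87. Of 8 oligodendrocyte genes only Sox10 was called in RAS cells (1.90 higher, SE 0.68, limma adjusted p = 0.0436), and none in GF cells. The summed astrocyte intensity was 42657.2 to 61423.8 in GF cells, and in RAS cells 10413.3 to 25406.1 in SMB21, 28410.1 to 50628.1 in SMB55 and 65718.9 to 69124.3 in SMB56. Fibroblast genes were higher in SMB21 RAS cells (4766.35 to 14445.9, against 314.872 to 359.321 in SMB21 parental cells), with 4 of 7 called beside 19.4% of all genes. Their sum was also above the line's parental arrays in RAS cells of SMB55 (1392 to 1552.88 against 408.107 to 452.19) and SMB56 (575.683 to 895.128 against 328.122 to 504.357). It was above them in the GF cells of each line too (755.913 to 1281.74). All 6 granule neuron precursor genes fell in RAS cells and 4 of 6 in GF cells, where 32.1% and 8.93% of all genes were called in either direction.

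Among the members, Id3 and Id4 varied most alike, with r = 0.703 over 24 arrays and 0.702 over the 18 cultures, and Id2 and Id3 least alike (0.010 and -0.035). These are descriptions over arrays that share lines and treatments. Among genes at or above the median mean level of 8.36, those most like Id3 over the cultures were Pdlim5 (r = 0.944), Il1rap (0.937) and Pofut2 (0.934), and over all arrays Wipf1 (0.882), Pam (0.879) and Fn1 (0.879). Most like Id4 were Coro1c (0.924), Mcam (0.919) and Ubl3 (0.913) over the cultures, and Sparcl1 (0.855), Timp3 (0.840) and Fxyd1 (0.839) over all arrays. Id1 was most like Atp6v0b (0.863), Fuom (0.857) and Tmem47 (0.839) over the cultures, and Nln (0.862), Prkcb (0.860) and Ywhaq (0.855) over all arrays. Id2 was most like Gpr85 (0.844), then Aard and then Glrb (0.799) over the cultures, and Glrb (0.827), Pfn2 (0.824) and Gnai1 (0.820) over all arrays.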

How the data were processed

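The deposited table holds 1 linear intensity per probe set and array, as the authors processed it, and the labels give biotin-labelled total RNA and groups by title. The summarisation and normalization behind them are not given in the sources used here. For P6 replicate 2 the age label conflicts with the title, which was followed. Of 22690 probe sets, 64 are controls, 20393 have 1 symbol, 691 several and 1606 none, and 20364 matched GRCm38.p6 by gene identifier. Per gene the probe set with the highest mean was kept (12393 genes). Log2 of intensity plus 16 entered linear models in limma 3.58.1 (R 4.3.3, lmFit and eBayes). Tests were two-sided, and p-values were adjusted by Benjamini-Hochberg across every gene in the fit. The 3 fits were of tissues (5 residual degrees of freedom), of the 18 cultures with treatment and line (13), and of the 9 combinations of line and treatment (9). They were run on simulated arrays with planted changes and independent noise. That simulation held no line effects, so it does not test the line term or the use of arrays of a line as replicates. An array has no read depth, and the number of arrays limits the precision.

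GF arrays, all numbered 1, correlated with parental replicate 1 of their line at 0.216, 0.339 and 0.104 (deviations from treatment means, which include the line). Parental replicate 2 correlated more highly in SMB21 and SMB56 (0.273 and 0.110), so whether the numbers pair GF and parental arrays cannot be told. The culture fit therefore has no replicate block, and results with that block are given as an alternative. No pairing by number was seen between RAS and parental arrays (-0.154 to -0.020) or tumor and P6 arrays (-0.028 and 0.005). In a group of 2 arrays the deviations mirror each other, so these values cannot exclude a shared culture or animal. Named are all members, Atoh1, Neurod1, and of each other list at most 4 called genes per comparison by the smallest p. Members and lists were chosen with earlier results of these data known. Leaving out whole lines, using only parental replicate 1, and leaving it out in the fit by line were alternatives chosen after seeing the data. Some genes of the lists were not analysed here.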

Additional observations from a re-analysis of the deposited data

Results flagged for a closer look

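In SMB21 parental cells (n = 4), replicate 1 lay far above the other 3 arrays in Id1 and Id4. The gap to the next array, as a share of the group's range, was 0.87 for Id1 and 0.88 and 0.839 for Id4 probe sets 1423259_at and 1450928_at, each above Dixon's limit for groups of 4. At the remaining Id4 probe set, 1423260_at, the gap was 0.53, under that limit. Chance flags about 1 in 20 groups, and 8 probe sets were looked at. The same array was high in the astrocyte list, as given above. Its part in the Id values was not tested.

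Id2 stood on different sides of the parental arrays in the 3 GF cultures: the GF array lay below all parental arrays in SMB21 and SMB55 and above both in SMB56. The test of the difference among lines gave F = 11.6 (adjusted p = 0.0862) and was not called. It rests on 1 GF array per line. Id4 in GF cells lay above all parental arrays in SMB21 and below both in SMB55, with F = 2.38 (adjusted p = 0.604), not called either.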

How the results depend on the processing

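Of the 64 Id differences, each recomputed under 26 to 35 alternatives, no called value turned its direction. The number of Id genes called (of 4) moved as follows. In GF against parental cells it went from 1 to 0 with 1 mean per line and treatment, with only the treatments compared and with the replicate block, to 2 without the dimmest 25% of genes, and ranged from 0 to 2 when single arrays or lines were left out. In RAS against GF cells it went from 0 to 1 with centred arrays, quantile normalization, only the treatments compared or only parental replicate 1, to 2 with that filter, a pseudocount of 64 or without parental replicate 1 of all lines, and from 0 to 1 on leaving out arrays or lines. In RAS against parental cells it went from 2 to 1 with 1 mean per line, with only or without parental replicate 1, and from 1 to 2 on leaving out arrays or lines. Among tissues, fitting only the groups compared gave 2 for tumors against P6 (from 1) and 2 for parental cells against P6 (from 4), and centring gave 2 for parental cells against tumors (from 0). Within lines, the mean of probe sets gave 2 for RAS in SMB21 and in SMB55 (from 1), as did that filter and the larger pseudocount in SMB55. Without parental replicate 1 of all lines it was 1 for the RAS and the GF response by line, 1 for SMB56 against SMB21, 3 for GF in SMB21 and 1 for GF in SMB56. On leaving out single arrays, counts ranged from 0 to 4 for parental cells against P6, from 0 to 2 for tumors against P6, for SMB55 against SMB21 and for RAS in SMB55 and in SMB56, from 1 to 2 for RAS and GF in SMB21, from 0 to 1 for GF in SMB56, the GF response by line and SMB56 against SMB21 or SMB55, and stayed at 0 for the other comparisons.

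The replicate block left RAS Id3 at 4.46 (adjusted p = 0.000517) and Id4 at 2.77 (adjusted p = 0.00993), where no pairing by number was seen. Of the called Id results it ended those of Id3 in GF cells and Id2 in parental cells against P6 (adjusted p = 0.0655). Counts of all genes depended more on the fit: 1107 in GF cells fell to 19 with 1 mean per line, 3974 in RAS cells to 667, and 1361 in tumors to 341 without P6 replicate 2. Centring moved the share of higher calls from 60.2% to 26.8% for parental cells against tumors, 57.1% to 40.5% against P6, 39.2% to 51.6% for tumors against P6 and 51.2% to 36.5% for RAS against GF cells.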
